A study of Mus musculus with 20 samples.

Results

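The 10 genes described here belong to the Hippo pathway: the upstream brake Nf2, the kinases Stk3, Stk4, Lats1 and Lats2, the scaffold Sav1, the co-activator Wwtr1 and the transcription factors Tead1, Tead2 and Tead3. Their probes were taken by gene name, with no threshold on a measured value, though the list itself was drawn up with earlier results of these data known. All 10 were found, among 20295 autosomal gene names with a probe, and 94 of the 170305 probes of the array carried one of their names. DNA copy number was measured in tumour tissue, so the data say how much DNA of each gene a tumour held relative to kidney, and nothing about expression.

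The tumours were 20 malignant mesotheliomas of the peritoneum, the lining of the abdominal cavity. They came from mice given crocidolite, an iron-rich asbestos fibre, by 2 intraperitoneal injections of 1.5 mg (3 mg in all) at 6 and 7 weeks of age, with observation for 600 to 700 days. Of the 20, 7 were wild type, and the labels split these into "Wild type(Dmt1)" (n = 4, here WT_Dmt1) and "Wild type" (n = 3, here WT_plain). The other tumours came from mice with the Dmt1Tg genotype, a transgene of an iron transporter (n = 4), and from 3 knockouts. These were MutyhKO, Ogg1KO and Mth1KO mice (n = 3 each), which lack an enzyme of the defence against oxidised guanine. The labels give the strain C57BL/6 for the kidney and do not name the promoter of the transgene. Each tumour was hybridised in Cy5 against non-neoplastic kidney of the same genotype in Cy3, and values are log2 of tumour over kidney, with 0 as equal DNA. A loss of 1 of 2 copies in every cell would give -1, and a gain to 3 copies 0.58. Normal cells in a tumour bring both nearer to 0, and their share was not measured.

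The Hippo pathway restrains growth. Nf2 encodes merlin, which sits at the cell membrane and helps to switch on the kinases Stk3 and Stk4 (also called Mst2 and Mst1). These kinases, held by Sav1, activate Lats1 and Lats2, which phosphorylate the co-activators Yap1 and Wwtr1 (also called Taz) and keep them out of the nucleus. When the kinases are off, Yap1 and Wwtr1 bind Tead factors and drive genes of proliferation. Loss of NF2 and, less often, of LATS2 is well known in human mesothelioma, and heterozygous Nf2 mice are prone to asbestos-induced mesothelioma.

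Each probe is a single strand of about 60 bases, and the probes shown here carried the lowest Nf2, Lats1 and Tead3 values and the highest Sav1 values, with the second Sav1 probe beside the first because the pair disagreed. Positions are those of mouse build mm9 in the files, and the files do not give the strand or say whether a probe lies in an exon or intron. All letters are in lower case because no base within a probe is singled out.
Nf2 probe 4, chr11:4708826-4708885: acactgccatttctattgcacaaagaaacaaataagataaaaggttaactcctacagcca
Nf2 probe 7, chr11:4739231-4739290: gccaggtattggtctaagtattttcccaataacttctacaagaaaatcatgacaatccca
Lats1 probe 2, chr10:7414335-7414394: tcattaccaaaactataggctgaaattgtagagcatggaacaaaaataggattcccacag
Sav1 probe 1, chr12:71070750-71070809: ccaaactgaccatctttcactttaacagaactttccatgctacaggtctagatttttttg
Sav1 probe 2, chr12:71079959-71080018: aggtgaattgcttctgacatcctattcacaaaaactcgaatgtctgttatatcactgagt
Tead3 probe 1, chr17:28471133-28471192: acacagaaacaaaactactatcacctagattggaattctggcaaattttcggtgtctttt
Tead3 probe 2, chr17:28478832-28478891: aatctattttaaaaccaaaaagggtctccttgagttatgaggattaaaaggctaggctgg
Tead3 probe 3, chr17:28485966-28486025: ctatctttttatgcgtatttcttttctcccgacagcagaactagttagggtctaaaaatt
The probes of each gene are numbered from the lowest coordinate. The mean G and C content of the 10 genes' probes ran from 35.6% at Tead3 to 37.6% at Stk4, against 36.8% over all autosomal probes.

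A gene's ratio is the mean over its probes, and its flank is the mean over all probes within 1 Mb on both sides, the gene itself left out. Their difference, gene minus flank, separates the gene from the trend of its region. The spread between neighbouring probes was 0.22 to 0.54 log2 units per array, so genes with few probes are read with less precision. On 2 arrays, WT_plain 1 and WT_plain 2, a patch of the surface had very low ratios and held 7.69% and 5.01% of the spots. In these patches lay 11 of the 94 probes of the 10 genes, none of them in Lats2, Sav1, Tead2 or Tead3. Signal was well above background in both channels on every array at 60 of the 94 probes, and at 0 of the 3 Tead3 probes. WT_Dmt1 and Dmt1Tg each filled a slide scanned on day 1, and all other tumours were on 3 slides scanned on day 2. Whether every tumour is from a separate mouse is not stated in the labels, and p-values therefore cover no more than the spread among these 20.

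Over the 20 tumours the mean gene ratio was lowest at Tead3 (-0.63 ± 0.19, SD, n = 20), followed by Lats1 (-0.33 ± 0.43), Wwtr1 (-0.30 ± 0.15), Lats2 (-0.28 ± 0.19), Tead1 (-0.27 ± 0.11), Nf2 (-0.26 ± 0.22), Stk4 (-0.16 ± 0.22) and Tead2 (-0.13 ± 0.19). Sav1 (0.08 ± 0.31) and Stk3 (0.09 ± 0.11) stood above 0. Neighbours in this order lay within their spread. Of the 200 gene-by-tumour values, 2 were at or below -1, both at Lats1, against 3.5% over all genes. With the spots in array patches left out, 0 of the 200 were at or below -1. The share over all genes was not counted for that setting.

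**Figure D1:**
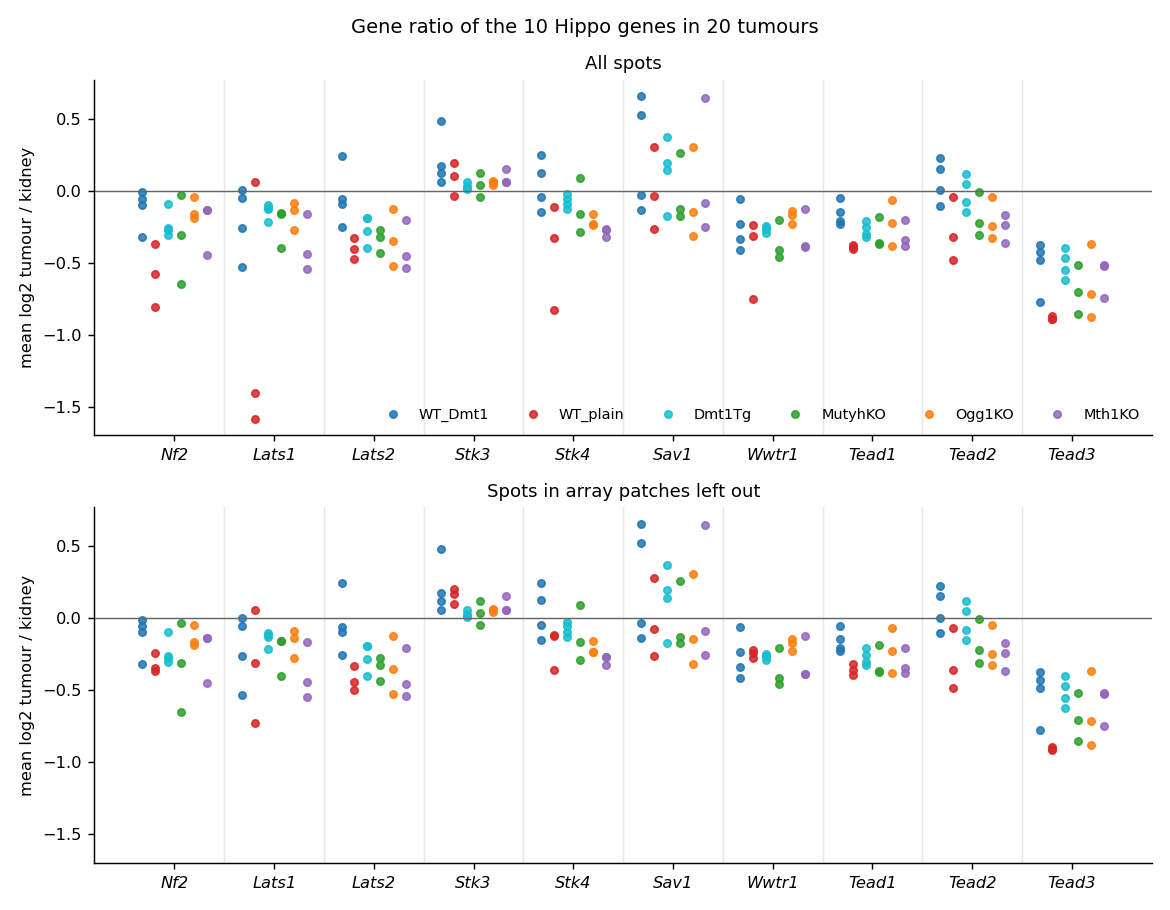
Mean log2 ratio of tumour over kidney DNA for each of the 10 genes (x axis) in 20 tumours, 1 point per tumour, coloured by labelled group. The upper panel uses all spots and the lower panel leaves out spots in array patches; the Lats1 values of -1.59 and -1.40 in WT_plain 1 and 2 are at -0.72 and -0.31 in the lower panel.

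Nf2 lies on chromosome 11 from 4674295 to 4746298 and had 8 probes. Its ratio was -0.01, -0.06, -0.10 and -0.32 in WT_Dmt1 1 to 4 and -0.09, -0.31, -0.27 and -0.26 in Dmt1Tg 1 to 4. In WT_plain 1 to 3 it was -0.58, -0.80 and -0.37, and in MutyhKO 1 to 3 it was -0.31, -0.65 and -0.03. Ogg1KO 1 to 3 stood at -0.17, -0.04 and -0.19, and Mth1KO 1 to 3 at -0.13, -0.45 and -0.13. All 20 values were below 0, and WT_plain 1, WT_plain 2 and MutyhKO 2 were the lowest. The flank was low in the same tumours, at -0.40, -0.54 and -0.32. Nf2 was below its flank in 13 tumours and above it in 7, with a mean gene minus flank of -0.05 ± 0.15 (SD, n = 20).

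The low Nf2 values rested on few probes. In WT_plain 1 and WT_plain 2, probe 4 lay in the array patch and read -3.18 and -4.17, and the other 7 probes averaged -0.21 and -0.32. With patch spots left out, the Nf2 ratios of these tumours were -0.24 and -0.35. In MutyhKO 2 no Nf2 probe lay in a patch, and gene minus flank was -0.33 (SE 0.15 over probes). Its lowest readings were -2.26 at probe 7 and -1.44 at probe 5, whose kidney signal was well above background on 9 and 1 of the 20 arrays, followed by -1.02 at probe 8, which was well above background on all arrays. Over the 4 Nf2 probes that were well above background on every array, MutyhKO 2 read -0.20, which was 0.09 above the flank so measured. Over those 4 probes Nf2 ran from -0.38 to 0.22 in the 20 tumours and was above its flank in 17. Probe 7 had a median of -1.09 over the 20 tumours and probe 2 a median of 0.18, so the probes of this gene differed from each other in level.

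Lats1 lies on chromosome 10 from 7407628 to 7427563, with 3 probes, and Lats2 on chromosome 14 from 58317793 to 58363842, with 6. The Lats1 ratio was -1.59, -1.40 and 0.06 in WT_plain 1 to 3, and in the other 17 tumours it ran from -0.54 in Mth1KO 2 to 0.0022 in WT_Dmt1 2. In WT_plain 1 and 2, probe 2 lay in the patch and read -3.38 and -3.64, and the other 2 probes averaged -0.69 and -0.29. Lats1 was below its flank in 19 of 20 tumours. It was called at gene level, which here means at least 0.3 from the flank and at least 2 SE over probes, in WT_Dmt1 1 (-0.71), WT_plain 1 (-1.26), WT_plain 2 (-1.13) and Mth1KO 2 (-0.55). Without patch spots the difference was -0.73 in WT_plain 1 and -0.25 in WT_plain 2, the latter no longer a call. In WT_Dmt1 1, the array with the highest noise, probe 1 alone read -1.15, against -0.26 and -0.19 at the others. Only probe 3 was well above background on every array, and it ran from -0.49 to 0.39.

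The Lats2 ratio was -0.10, 0.24, -0.06 and -0.25 in WT_Dmt1 1 to 4, -0.19, -0.40, -0.28 and -0.19 in Dmt1Tg 1 to 4, and -0.41, -0.47 and -0.33 in WT_plain 1 to 3. It was -0.33, -0.43 and -0.27 in MutyhKO 1 to 3, -0.52, -0.35 and -0.12 in Ogg1KO 1 to 3, and -0.20, -0.54 and -0.46 in Mth1KO 1 to 3. It was below 0 in all tumours but WT_Dmt1 2. All 6 probes had a median below 0, from -0.49 to -0.17. Lats2 was below its flank in 18 tumours (gene minus flank -0.13 ± 0.15, SD, n = 20) and was called at gene level in none. WT_Dmt1 2 stood highest, at 0.31 (SE 0.19 over probes) above the flank.

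**Figure D2:**
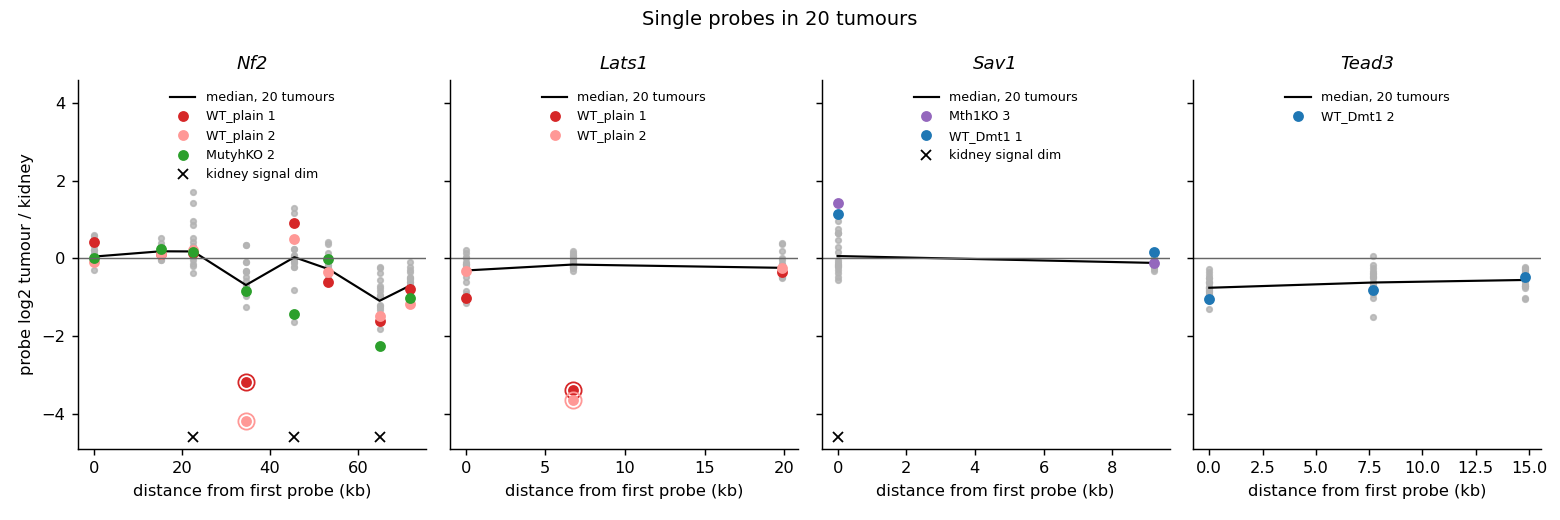
Log2 ratio of each probe (y axis) against its distance from the gene's first probe in kb (x axis) for Nf2, Lats1, Sav1 and Tead3, 1 point per tumour, with the median over 20 tumours as a line and named tumours in colour. Rings mark spots in an array patch, which hold the lowest Nf2 and Lats1 readings (-4.17 and -3.64), and crosses at the foot mark probes whose kidney signal was well above background on fewer than 10 arrays.

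The upstream kinases Stk3 and Stk4 had mean differences from their flanks of 0.02 and -0.01. Stk3, on chromosome 15 from 34813524 to 35083187, had 28 probes and the smallest spread of gene minus flank (0.02 ± 0.06, SD, n = 20), which ran from -0.07 to 0.16. Its ratio was 0.48 in WT_Dmt1 2, with a flank of 0.41 and a median of chromosome 15 of 0.31. In that tumour 27 of the 28 probes were above 0. The other 19 tumours had Stk3 ratios from -0.04 to 0.19, flanks from -0.03 to 0.10 and chromosome medians from -0.01 to 0.11. The high Stk3 value was thus shared by the region and the chromosome and was 0.07 above the flank.

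Stk4, on chromosome 2 from 163904392 to 163975311, had 6 probes. Its ratio was -0.33, -0.83 and -0.12 in WT_plain 1 to 3, and ran from -0.32 in Mth1KO 2 to 0.25 in WT_Dmt1 1 in the other 17. Without patch spots WT_plain 2 stood at -0.36, still the lowest of the 20. Gene minus flank was -0.01 ± 0.11 (SD, n = 20), with 11 tumours below the flank and 9 above. The flank was at or below -0.2 in 7 tumours, among them all of WT_plain. No tumour was called at gene level for Stk3 or Stk4.

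Sav1, on chromosome 12 from 71070750 to 71080018, had 2 probes that disagreed. Probe 1 ran from -0.56 in Ogg1KO 3 to 1.42 in Mth1KO 3, and its kidney signal was well above background on 4 of 20 arrays. Probe 2, well above background on all arrays, ran from -0.33 to 0.17. The Sav1 ratio was 0.66 in WT_Dmt1 1, 0.65 in Mth1KO 3 and 0.53 in WT_Dmt1 4, and each rested on probe 1. Mth1KO 3 was the only tumour with a higher gene-level call at any of the 10 genes (gene minus flank 0.86, SE 0.35 over probes). In it probe 2 read -0.13.

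**Figure D3:**
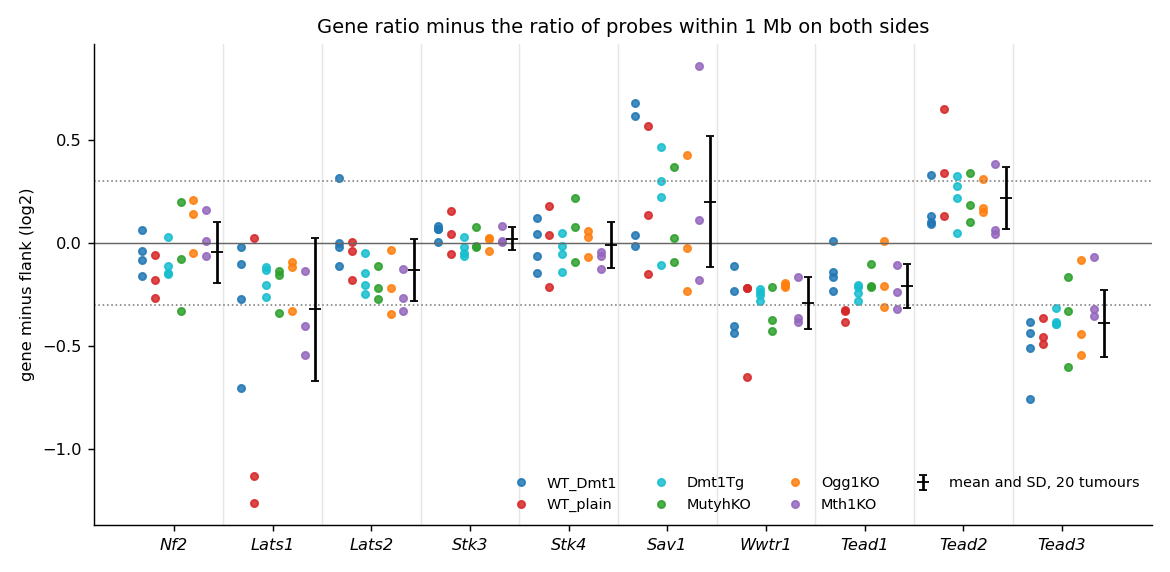
Gene ratio minus the ratio of the probes within 1 Mb on both sides (y axis, log2) for the 10 genes in 20 tumours, coloured by labelled group, with the mean and SD over 20 tumours as black bars and dotted lines at -0.3 and 0.3. Wwtr1 and Tead3 were below 0 in all 20 tumours, against 8.83% of all genes, and Tead2 above 0 in all 20, against 3.01%.

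Wwtr1, the co-activator restrained by the Lats kinases, lies on chromosome 3 from 57266826 to 57371637 and had 13 probes, each with a median below 0. Its ratio ran from -0.75 in WT_plain 1 over a median of -0.26 to -0.06 in WT_Dmt1 1. It was below its left and its right flank in all 20 tumours. The flank itself was near 0 (-0.10 to 0.06). Gene minus flank averaged -0.29 ± 0.13 (SD, n = 20) and was called at gene level in 7 tumours. These were WT_Dmt1 2 (-0.44), WT_Dmt1 3 (-0.40), WT_plain 1 (-0.65), MutyhKO 2 (-0.37), MutyhKO 3 (-0.43), Mth1KO 2 (-0.39) and Mth1KO 3 (-0.36). In WT_plain 1, 3 probes lay in the patch, and without patch spots the difference was -0.20 and no longer a call. Gene minus flank in the 4 Dmt1Tg tumours, whose arrays had noise of 0.24 to 0.27, lay close together, from -0.28 to -0.23. The Ogg1KO tumours lay closer still, from -0.21 to -0.20.

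Among the Tead factors, which bind the promoters that Yap1 and Wwtr1 act on, Tead3 was the lowest. Tead3, on chromosome 17 from 28471133 to 28486025, had 3 probes with medians of -0.76, -0.62 and -0.55. Its ratio was -0.43, -0.77, -0.38 and -0.48 in WT_Dmt1 1 to 4, -0.47, -0.55, -0.62 and -0.40 in Dmt1Tg 1 to 4, and -0.87, -0.89 and -0.89 in WT_plain 1 to 3. It was -0.52, -0.70 and -0.85 in MutyhKO, -0.88, -0.72 and -0.37 in Ogg1KO, and -0.53, -0.51 and -0.75 in Mth1KO, each in the order of replicates 1 to 3. The WT_plain tumours lay below all others except Ogg1KO 1, which fell among them. Tead3 was below its flank in all 20 tumours (gene minus flank -0.76 to -0.07), as were 8.83% of all genes. With 3 probes it passed the gene-level rule in WT_Dmt1 2 alone (gene minus flank -0.76). None of its probes was well above background on every array.

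Tead1, on chromosome 7 from 119831011 to 120047812, had 23 probes, 22 of them with a median below 0. Its ratio ran from -0.41 in WT_plain 2 over a median of -0.28 to -0.05 in WT_Dmt1 4. It was below its flank in 18 tumours and was called at gene level in 5: WT_plain 1 (-0.33), WT_plain 2 (-0.39), WT_plain 3 (-0.33), Ogg1KO 2 (-0.31) and Mth1KO 2 (-0.32). Without patch spots the difference in WT_plain 1 was -0.26 and no longer a call. With probes well above background on every array, 1 tumour was called for Tead1. Along the gene the first 17 probes (119831011 to 119982971) had probe medians averaging -0.34, and the last 6 (119997290 to 120047812) averaged -0.09. This split was chosen after the values were seen and is given as a description.

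Tead2, on the same chromosome from 52475750 to 52487016, had 2 probes, both well above background on every array. Its ratio ran from -0.48 in WT_plain 3 over a median of -0.13 to 0.23 in WT_Dmt1 1. It was above its flank in all 20 tumours, by 0.04 to 0.65, and 3.01% of all genes were above theirs in all 20. The Tead2 flank itself ran from -0.69 to 0.14. No tumour was called at gene level.

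**Figure D4:**
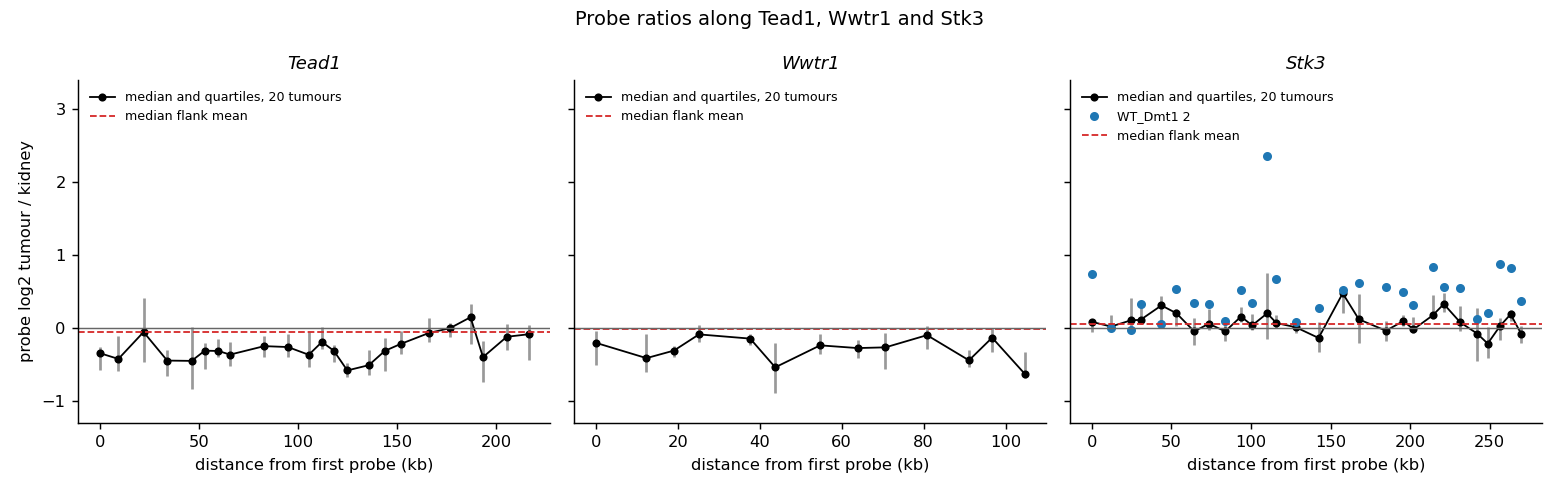
Probe log2 ratios (y axis) against the distance from the first probe in kb (x axis) for Tead1, Wwtr1 and Stk3, as the median over 20 tumours with a bar from the lower to the upper quartile and the median flank mean as a dashed line. The Tead1 medians lie lower over the first 17 probes (mean -0.34) than over the last 6 (-0.09), and the Stk3 probes of WT_Dmt1 2 (blue) lie above 0 at 27 of 28 positions.

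Counted over the 10 genes and 20 tumours, 18 of 200 pairs (9%) were called lower at gene level, against 5.37% of all gene-by-tumour pairs. They were 7 at Wwtr1, 5 at Tead1, 4 at Lats1 and 1 each at Nf2 and Tead3. Higher calls numbered 1 of 200, at Sav1, against 3.07%. The lower calls were then counted with differences common to all tumours removed. With patch spots left out and the median of each probe over the 20 tumours subtracted, a setting chosen after seeing the data, 0 of 200 pairs were called lower, against 2.22%, and 3 were called higher, against 2.97%. The 3 were Lats2 in WT_Dmt1 2 (0.48 above the flank) and Sav1 in WT_Dmt1 4 (0.53) and Mth1KO 3 (0.77). Under that setting the lowest gene minus flank of Nf2 was -0.26, in MutyhKO 2, and that of Lats1 was -0.48, in WT_Dmt1 1. A change shared by all tumours would be removed by this step too.

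The flanks differed between the scan days. A flank at or below -0.2 was found in 53 of 200 pairs (26.5%), against 19.2% of all pairs, and a flank at or above 0.2 in 1, that of Stk3 in WT_Dmt1 2, against 1.72%. Of the low flanks, 16 were at Tead2, 13 at Tead3, 10 at Nf2, 7 at Stk4, 3 at Lats2, and 2 each at Lats1 and Sav1. The 12 tumours of day 2 held 48 of the 53, or 40% of their 120 pairs, against 28.9% of all genes on that day. The 8 tumours of day 1 held 5 of 80 (6.25%), against 4.65%. At Nf2 all 10 low flanks were in day 2 tumours, where the flank ran from -0.54 to -0.14, and the day 1 flanks ran from -0.16 to 0.08. Each labelled group lay on 1 scan day, so day and group cannot be told apart in the level of a flank. The 3 slides of day 2 each held tumours of 2 groups, and the part of the slide was not tested. With patch spots left out and the shared profile removed, 4 of 200 flanks were at or below -0.2, against 1.65%, at Tead2 in WT_plain 3 and Mth1KO 2, Tead3 in Mth1KO 2 and Stk4 in WT_plain 2. At or above 0.2 were 9, against 3.21%, all in WT_Dmt1 tumours, which shared 1 slide. They were Nf2 in WT_Dmt1 1, Stk3 in WT_Dmt1 2, Stk4 and Tead2 in WT_Dmt1 1 and 3, and Tead3 in WT_Dmt1 1, 2 and 3.

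**Figure D5:**
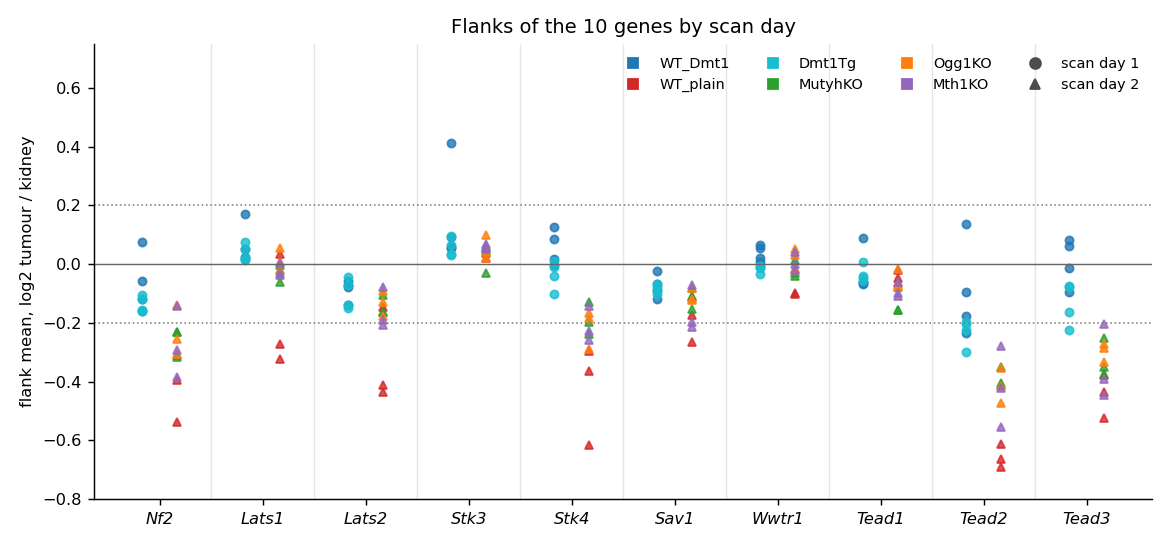
Mean log2 ratio of the probes within 1 Mb on both sides of each gene (y axis) in the tumours scanned on day 1 (circles, n = 8) and day 2 (triangles, n = 12), coloured by labelled group, with dotted lines at -0.2 and 0.2. Low flanks at Nf2, Stk4, Tead2 and Tead3 lie mostly on day 2, and the Stk3 flank of WT_Dmt1 2 stands at 0.41.

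Each genotype was compared with the 7 wild-type tumours. The question was whether an iron transporter transgene or the lack of Mutyh, Ogg1 or Mth1 went with gain or loss of these genes. The 4 comparisons share the wild-type tumours. None of the 10 genes passed in any of them (limma, adjusted p at or above 0.629 for the gene ratio and at or above 0.424 for gene minus flank). Over all genes the share called was 0% for Dmt1Tg, Ogg1KO and Mth1KO and, for MutyhKO, 0.00494% by gene ratio and 0.0495% by gene minus flank (0.0396% higher and 0.00989% lower). At an unadjusted p under 0.05 there were 0 of 40 gene ratios, against 3.88%, 8.06%, 8.88% and 9.08% of all genes for Dmt1Tg, MutyhKO, Ogg1KO and Mth1KO. There were 3 of 40 values of gene minus flank, against 4.44%, 9.87%, 11.1% and 10.1% in the same order.

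At Nf2 the gene ratio averaged -0.32 ± 0.29 (SD, n = 7) in wild type. It differed by 0.09 (SE 0.14) in Dmt1Tg, -0.01 (SE 0.15) in MutyhKO, 0.19 (SE 0.15) in Ogg1KO and 0.08 (SE 0.15) in Mth1KO. Without patch spots the wild-type mean was -0.21 ± 0.15, and the differences were -0.03 (SE 0.10), -0.12 (SE 0.11), 0.07 (SE 0.11) and -0.03 (SE 0.11) in the same order, so the sign turned for Dmt1Tg and Mth1KO. Its gene minus flank was higher in Ogg1KO by 0.21 (SE 0.10, limma unadjusted p = 0.045, adjusted p = 0.438), with 2 of 3 tumours above their flank, and by 0.14 (SE 0.09) with patch spots left out. At Lats2, gene minus flank was lower than in wild type by each estimate: -0.16 (SE 0.09) in Dmt1Tg, -0.20 (SE 0.09) in MutyhKO, -0.20 (SE 0.09) in Ogg1KO and -0.24 (SE 0.09) in Mth1KO. The smallest adjusted p of these was 0.424, and the wild-type mean they share holds the 0.31 of WT_Dmt1 2. Without patch spots they were -0.08, -0.12, -0.12 and -0.16. At Lats1 the estimates for the gene ratio ran from 0.16 (SE 0.28) to 0.40 (SE 0.25), set against a wild-type mean that holds both patch values. Once patch spots were dropped they were 0.12 (SE 0.13) in Dmt1Tg, 0.02 (SE 0.14) in MutyhKO, 0.09 (SE 0.14) in Ogg1KO and -0.12 (SE 0.14) in Mth1KO, where the sign turned.

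The comparisons were repeated within each scan day, Dmt1Tg against WT_Dmt1 and the knockouts against WT_plain. Again 0 of the 10 genes passed by either measure, and the smallest limma adjusted p was 0.0635, for the Nf2 ratio in Ogg1KO. Nf2 was then higher than in WT_plain by 0.25 (SE 0.14) in MutyhKO, 0.45 (SE 0.14) in Ogg1KO and 0.35 (SE 0.14) in Mth1KO, and differed from WT_Dmt1 by -0.11 (SE 0.12) in Dmt1Tg. Of the 3 WT_plain tumours, 2 hold the Nf2 patch spot. Without patch spots the mean Nf2 ratio was -0.32 in WT_plain, -0.33 in MutyhKO, -0.13 in Ogg1KO and -0.24 in Mth1KO, so MutyhKO was no longer above WT_plain and the other gaps were smaller. With slide as a random block none of the 10 genes passed either, with limma adjusted p from 0.566 upward. Over all 280 combinations of comparison and alternative, these fits among them, 0% to 6.11% of all genes were called.

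The 2 wild-type sets were compared with each other because the labels keep them apart. By gene ratio 7 of the 10 genes were higher in WT_Dmt1 than in WT_plain (limma adjusted p under 0.05), against 27.8% of all genes higher, 3.93% lower and 31.7% in either direction. At an unadjusted p under 0.05 the same count of 7 stood against 42.4% of all genes. They were Lats1 (0.77, SE 0.25, adjusted p = 0.0273), Stk4 (0.47, SE 0.13, adjusted p = 0.0101), Nf2 (0.46, SE 0.13, adjusted p = 0.00944), Tead3 (0.37), Lats2 (0.36), Tead2 (0.35) and Tead1 (0.23). Tead3 differed by 0.21 (limma adjusted p = 0.297) in the deposited value table, and Tead2 by 0.23 (limma adjusted p = 0.151) after normexp background correction, and neither passed there. With the median over a gene's probes 2 of the 10 passed, against 27.1% of all genes. All 10 estimates were above 0, with a median of 0.36, and the median over all genes was 0.19. The sets lay on different slides and scan days, which cannot be told apart from the set.

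Fewer of the 10 genes passed once the flanks or the patch spots were taken out, and fewer of all genes did too. By gene minus flank only Tead1 passed (0.22, SE 0.07, limma adjusted p = 0.0352), against 19.3% of all genes (11% higher and 8.26% lower), and the median over the 10 genes was 0.09. Leaving out any of WT_Dmt1 2, 3 and 4 or WT_plain 1 and 2 ended that call (limma adjusted p from 0.0521 to 0.123), and leaving out WT_Dmt1 1 or WT_plain 3 added Lats1. With patch spots left out, Lats2 passed in place of Tead1 (gene minus flank 0.29, limma adjusted p = 0.0494). On the same spots 4 of the 10 gene ratios passed, those of Lats2, Tead1, Tead2 and Tead3, against 27.5% of all genes. There Lats1 differed by 0.12 (limma adjusted p = 0.612), Nf2 by 0.20 (adjusted p = 0.199) and Stk4 by 0.24 (adjusted p = 0.067). Without WT_plain 2 the count by gene ratio was 1, against 21.1% of all genes, and without WT_plain 1 it was 3, against 24%. Without WT_Dmt1 2 or WT_Dmt1 3 it was 4, against 27.4% and 25.7%.

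Across all 20 tumours, gene minus flank differed from 0 at 7 of the 10 genes (limma adjusted p under 0.05), against 62.4% of all genes. Lower than their flanks were Tead3 (-0.39, SE 0.04, adjusted p = 8.9e-09), Lats1 (-0.32, SE 0.07), Wwtr1 (-0.29, SE 0.03, adjusted p = 5.1e-09), Tead1 (-0.21, SE 0.02) and Lats2 (-0.13, SE 0.03), where 38% of all genes were lower. Higher were Tead2 (0.22, SE 0.04) and Sav1 (0.20, SE 0.07), where 24.4% of all genes were higher. Sav1 turned to -0.09 after normexp (limma adjusted p = 0.0139) and did not pass with slide as a random block (adjusted p = 0.0573) or a flank of 2 Mb (adjusted p = 0.0511). Tead2 was at 0.07 with a flank of 2 Mb and did not pass (limma adjusted p = 0.0921). Nf2 (-0.05, SE 0.03), Stk3 (0.02) and Stk4 (-0.01) did not pass. Stk3 did pass under other settings, at 0.11 after normexp (limma adjusted p = 1e-07), 0.09 with probes above background on every array (adjusted p = 8.5e-05) and 0.07 with a flank of 2 Mb (adjusted p = 0.000435). The median over the 10 genes was -0.09, against -0.04 over all genes. Of all genes, 11.7% had a lower mean than Tead3, 16.4% than Lats1 and 19.0% than Wwtr1. Since most genes differ from their flanks in this way, the share at the 10 genes is near the background. All arrays read the same probes, so an offset fixed to a probe recurs on each array and lowers p too. The p-values therefore do not separate such offsets from a difference in DNA. At Tead3 the SE over probes in single tumours was 0.17 (Mth1KO 1) to 0.46 (WT_plain 1), and no probe was well above background on every array. With probes above background on every array, Nf2 stood 0.10 above its flank and passed (limma adjusted p = 0.00236), as it did at 0.06 with the median over probes. It passed below its flank, at -0.07, after normexp and, at -0.09, with a flank of 0.5 Mb, so the sign at Nf2 depended on the setting.

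Of the 34 other Hippo genes listed, 32 had a probe. None of them passed in a genotype comparison by either measure (limma adjusted p under 0.05). At an unadjusted p under 0.05 there were 3 to 4 of 32 per comparison by gene ratio, against 3.88% to 9.08% of all genes, and 3 to 6 by gene minus flank, against 4.44% to 11.1%. Between the wild-type sets 14 of 32 were higher in WT_Dmt1 by gene ratio, against 27.8% of all genes, and 0 lower, against 3.93%: Amotl1, Birc5, Fat1, Llgl1, Rassf1, Rdx, Scrib, Taok2, Taok3, Tead4, Vgll4, Wwc1, Wwc2 and Yap1. By gene minus flank 5 of these passed, all higher, against 11% of all genes: Fat1, Rdx, Wwc1, Wwc2 and Yap1, the co-activator that works beside Wwtr1 (0.59, SE 0.11, adjusted p = 0.00261). Against their flanks over all tumours, 16 of 32 were lower, against 38% of all genes (Ajuba, Amotl2, Axl, Birc5, Dchs1, Ezr, Limd1, Llgl1, Map4k4, Mob1a, Rassf1, Rdx, Vgll4, Wtip, Wwc1 and Wwc2) and 4 higher, against 24.4% (Amotl1, Frmd6, Scrib and Taok1). Gene-level calls were most frequent at Amotl2 (15 tumours), Vgll4 (13), Limd1 (12), Wwc1 (12) and Ezr (10), all lower, within 102 lower calls of 640 pairs, against 5.37% of all pairs. With patch spots left out and the shared profile removed, these 5 genes had 1, 0, 0, 2 and 0 lower calls, in that order, against 2.22% of all pairs. They then had 2, 2, 0, 0 and 1 higher calls, against 2.97%. Llgl1 went the other way, from 5 lower calls to 6.

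The likeness between the 10 genes was read over the tumours. Over 45 pairs of these genes the median correlation of gene minus flank across 20 tumours was -0.04 (-0.49 to 0.52), while that of the flanks was 0.69 (-0.04 to 0.95). These are descriptions, since the values share arrays. For each gene with at least 3 probes, the gene on another chromosome with the most similar gene minus flank was sought among 8284 to 8708 genes. It was AK148280 for Nf2 (r = 0.77, Spearman's rho = 0.69), Atg13 for Lats1 (r = 0.92, rho = 0.66), Marchf6 for Lats2 (r = 0.84, rho = 0.86) and Rbm5 for Stk3 (r = 0.74, rho = 0.63). For Stk4 it was Rhbdl3 (r = 0.72, rho = 0.65), for Wwtr1 Pgbd1 (r = 0.88, rho = 0.84), for Tead1 Sipa1l1 (r = 0.88, rho = 0.86) and for Tead3 Fmo5 (r = 0.83, rho = 0.87). Each is the highest of all genes searched, so no p is given. Without the 2 tumours farthest from the median, r was 0.69 for Lats1 with Atg13, where those were WT_plain 1 and 2, and 0.56 to 0.88 for the others. With patch spots left out, r was 0.72 for Lats1, 0.60 for Wwtr1, 0.60 for Stk3 and 0.51 for Stk4 with the same genes. For the others it was 0.71 to 0.86.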

How the data were processed

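Each array held 180880 spots. Agilent Feature Extraction (10.7 in the submitters' processing notes; per the file headers, 10.7.1.1 and the protocol CGH_107_Sep09) gave background-subtracted, dye-normalised red and green intensity signals, which the authors deposited. Per the labels, Cy5 held tumour and Cy3 kidney DNA. The deposited value table holds log2 ratios that matched the scanner log10 ratios, so scale and direction are known. It is not centred on the median (columns have medians of -0.028 to 0.031). From the intensities, log2 of red over green was taken, control and outlier-flagged spots left out, spots of a probe averaged and the median of the autosomal probes subtracted per array; neither loess nor quantile normalisation was applied. Saturated spots (0 to 10 per array) were kept. Of 21138 gene names, 13683 were current, 1535 were updated and 5920 kept the file's name.

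Genotypes were compared with limma 3.58.1 (R 4.3.3; the prior variance followed the number of probes) on 20224 genes by gene ratio and 20220 by gene minus flank (at least 20 flank probes), in 1 fit of 5 genotypes, or 6 groups for the wild-type sets, with Benjamini-Hochberg adjustment over all genes. The fit was checked on simulated data. The alternatives are named in the closing section. The members and lists were chosen with earlier results of these data known. All 10 genes are named, others of the Hippo list where past an adjusted p of 0.05 or among the 5 with most tumours called, and 1 most similar gene each. Python 3.11.15, numpy 2.4.6, scipy 1.17.1 and pandas 2.3.3 were used. No sample was dropped or imputed; a gene with a missing value on any array was left out of that fit.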

Additional observations from a re-analysis of the deposited data

Results flagged for a closer look

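In the group tests of single samples, 3 of 60 sets of values held a tumour far from the others, and chance flags about 5%. In the 7 wild-type tumours, Lats2 gene minus flank was 0.31 in WT_Dmt1 2, with the next highest at 0.0058, and Tead3 gene minus flank was -0.76 in the same tumour, with the next lowest at -0.51. In Dmt1Tg 4, Tead3 gene minus flank was -0.32 (SE 0.30 over probes), with the other 3 between -0.40 and -0.38, so that flag rests on how close those 3 lie. WT_Dmt1 2 also holds the raised Stk3 region.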

How the results depend on the processing

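The genotype comparisons called 0 of the 10 genes in all 280 combinations of comparison and alternative run, leaving out each tumour included, while the share of all genes called reached 6.11%. Not all 10 genes were in every fit. Sav1 and Tead2 dropped out where 3 probes were required, and Tead3 and Sav1 with probes above background only. Shares of all genes called stand in brackets. Between the wild-type sets, the count by gene ratio was 7 as reported (31.7%). With patch spots left out it was 4 (27.5%), and 4 with the shared profile removed as well (27.6%). With the median over probes it was 2 (27.1%), and leaving out each tumour 1 to 7 (21.1% to 32.5%). By gene minus flank it was 1 as reported (19.3%), 0 with 1 prior variance (17.9%), and 0 to 2 leaving out each tumour (9.2% to 21.2%). Same-numbered tumours of different groups did not deviate together (median r -0.014 over 46 pairs, and -0.0066 over 120 pairs of different number). This gives no sign of pairing by number and does not exclude it. With the replicate block 0 values of gene minus flank passed (16.4%). Of the 7 gene ratios, that of Tead3 no longer passed with this block (0.35, limma adjusted p = 0.0716). With probes above background only, the Lats1 difference between these sets was -0.112 (adjusted p = 0.687). Against 0, the count was 7 as reported (62.4%), 7 leaving out each tumour (60.6% to 63.1%) and 5 to 9 over 31 alternatives, those included. There Sav1 turned to -0.0907 with normexp, and Nf2 to 0.0992 with probes above background and to 0.0621 with the median over probes. Sav1 lost its call with slide as a random block and with a flank of 2 Mb, where Tead2 lost its call too.

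In brackets is the share of all gene-by-tumour pairs called in the same setting. Lower gene-level calls numbered 18 as reported (5.37%), 8 with normexp (3.53%) and 8 with probes above background over 9 genes (6.01%). They numbered 0 with the shared profile removed (2.5%), 0 with patch spots also left out (2.22%), 31 at a threshold of 0.2 (5.9%) and 6 at 0.5 (3.94%). Over the 11 arrays with noise up to 0.36, a choice made after seeing the data, they numbered 6 (5.92%). Higher calls numbered 1 as reported (3.07%). They numbered 0 with normexp (2.05%), probes above background (3.01%), genes with at least 3 probes (4.06%) or the less noisy arrays (2.73%). With the shared profile removed they numbered 3 (2.75%), with patch spots also left out 3 (2.97%), and with a flank of 0.5 Mb 2 (3.35%). Low flanks numbered 53 as reported (19.2%), 32 with normexp (10.2%), 13 with the shared profile removed (4.07%) and 4 with patch spots also left out (1.65%). They numbered 35 over the 8 genes with at least 3 probes (14.1%), 93 at a threshold of 0.1 (36.5%) and 30 at 0.3 (9.89%). High flanks numbered 1 as reported (1.72%), 3 with centring on the mode (1.73%) and 9 with the shared profile removed (3.19%). They numbered 9 with patch spots also left out (3.21%) and 4 at a threshold of 0.1 (9.02%). The causes of these shifts were not tested. Kidney signal near background limits what single Nf2 and Sav1 probes show, and 2 or 3 probes limit Lats1, Sav1, Tead2 and Tead3.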
